A study of Mus musculus with 32 samples.

Results

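The expression of 54 genes of mitosis and the mitotic spindle was followed through the hearts of 32 mice, each hybridised to an array of its own. The genes were taken by their name on the array, where all 54 were present through 73 probes, out of 36409 gene names in all. A probe could be tested if 3 or more of the 4 arrays in some group showed it well above background, here called detected, and a gene was represented by its brightest such probe. On that rule 49 of the 54 genes were among the 27532 genes tested. The other 5 were hardly seen in any heart: Aurkb on 2 of 32 arrays, Ttk on 1, Kif15 on 2, Kif2c on 3 and Ncapg on 1.

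The mice were C57BL/6 subjects of a social defeat procedure meant to model posttraumatic stress disorder. Stressed mice spent 6 hours a day in a mesh box within the cage of an aggressor mouse and were attacked during short direct encounters, and control mice stayed in mesh boxes in a cage that held no aggressor. The 4 conditions were T5R1 (5 days of exposure, 1 day of rest), T5R10 (5 days, then 10 days of rest), T10R1 (10 days, then 1 day) and T10R42 (10 days, then 42 days), each with 4 stressed mice and 4 controls of its own. RNA came from individual hearts, with no allele or drug named in the labels and no age given, and whole tissue was used, so a gene carried by few cells is measured against the RNA of all the others.

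Mitosis divides the copied chromosomes between daughter cells. Entry is driven by cyclin B bound to the kinase CDK1, chromosomes are attached to spindle microtubules at the kinetochore, a checkpoint holds the cell until all are attached, and the anaphase-promoting complex with CDC20 then releases the sister chromatids before cytokinesis divides the cell. Most genes of this programme are transcribed together late in the cell cycle, after the genes of DNA replication. In the adult mammalian heart most cardiomyocytes no longer divide, whereas fibroblasts, endothelial cells and immune cells can.

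Promoter sequences of the genes are shown here as a description. The cell cycle genes homology region (CHR), with the core TTTGAA or less often TTTAAA, and the CCAAT box are known elements of such promoters. Promoters of 44 of the 54 genes were matched by symbol in RefSeq sequence (assembly GRCm38.p6, 250 bases before to 50 after the annotated start), and Ccna2, Aurkb, Incenp, Pbk, Ska1, Kif20a, Tpx2, Smc4, Foxm1 and Fam64a were not matched. Counting both strands, TTTGAA stood in 37 of the 47 windows of these 44 genes (78.7%), against 17.9% of all 32851 windows of the same length. TTTAAA stood in 9 of the 47 (19.1%, against 13.2%), and CCAAT in 36 (76.6%, against 37.4%). Both TTTGAA and CCAAT were present in 66% of the members' windows and in 6.95% of all windows. Matches of different motifs overlapped in 1 of the 47 windows. Cdk1, Cenpa, Cenpf, Ndc80, Hmmr and Cep55 held TTTGAA and did not pass the test in T5R1 described below. Ccnb1, Cks2, Birc5, Melk, Bub1, Mad2l1, Cenpe, Cenph, Nuf2 and Nusap1 lacked it and rose there. The other tested genes with a matched promoter held TTTGAA and rose. Whether the motifs bear on the changes was not tested.

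In 11 members TTTGAA and CCAAT both lay within the 120 bases before the start, an arrangement found in 1.5% of all windows. Of the 11, 6 chosen by hand are printed, 5′ to 3′ along the gene's own strand and ending just before the annotated start. Capitals mark TTTGAA or its reverse complement TTCAAA, and CCAAT or its reverse complement ATTGG.
Top2a, chr11:99024190-99024309, minus strand: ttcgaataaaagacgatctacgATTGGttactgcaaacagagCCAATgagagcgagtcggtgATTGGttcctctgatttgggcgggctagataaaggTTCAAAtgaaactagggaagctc
Cdk1, chr10:69352913-69353032, minus strand: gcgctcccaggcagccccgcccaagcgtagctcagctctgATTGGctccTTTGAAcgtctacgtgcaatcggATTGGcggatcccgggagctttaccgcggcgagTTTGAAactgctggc
Ube2c, chr2:164769809-164769928, plus strand: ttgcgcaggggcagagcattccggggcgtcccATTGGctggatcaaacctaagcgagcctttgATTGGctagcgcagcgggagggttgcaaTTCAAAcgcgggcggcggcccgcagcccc
Cdc20, chr4:118437344-118437463, minus strand: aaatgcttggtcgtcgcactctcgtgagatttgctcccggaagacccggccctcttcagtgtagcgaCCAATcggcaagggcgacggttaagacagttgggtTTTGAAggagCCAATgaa
Kif22, chr7:127042421-127042540, minus strand: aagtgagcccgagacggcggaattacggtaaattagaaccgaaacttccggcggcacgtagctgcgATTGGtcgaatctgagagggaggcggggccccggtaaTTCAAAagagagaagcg
Kif11, chr19:37376262-37376381, plus strand: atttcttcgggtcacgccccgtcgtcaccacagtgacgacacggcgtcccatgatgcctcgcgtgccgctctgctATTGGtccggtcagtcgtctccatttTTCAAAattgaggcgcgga

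The last TTTGAA or TTCAAA before the start began 15 to 29 bases upstream of it in these 6 promoters. In each of them a CCAAT box preceded it, with 21 (Kif11) to 32 (Kif22) bases between them. Top2a carried 3 CCAAT boxes in this stretch, and Cdk1 carried a second TTTGAA further upstream. The layout was not shared by all 11 members. Among those not printed, Cks1b, Espl1 and Prc1 also had CCAAT first. In Espl1 the last TTTGAA and the CCAAT box before it lay closer together than those of the 6, at -27 and -44 from the start. In Cdkn3 and Ect2 the CCAAT boxes within the 120 bases lay between TTTGAA and the start. For Ect2 this was at the annotated start where both motifs lay within them. These matches describe the sequence only, and binding at them was not measured.

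Levels are normalised signals, with the 75th percentile of the array's probes set to 100. Differences are log2 values of stressed hearts minus those of controls, with their standard error. A gene is said to have risen or fallen where limma's test gave a Benjamini-Hochberg adjusted p below 0.05 over all 27532 genes. Between 28792 and 40672 probes were detected per array. All 10 cardiomyocyte markers were well above background on each of the 32 arrays. Each condition had a slide to itself, so condition and slide cannot be told apart when levels are compared between conditions. Nothing in the labels beyond individual hearts describes litters or cages, and the p-values measure the spread between these mice. Controls always occupied the slide columns 1 and 2 and stressed mice the columns 3 and 4, so array column and stress cannot be told apart either.

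A day after a 5-day exposure (T5R1), genes from every stage of mitosis rose in the stressed hearts. Of the 49 mitotic genes tested, 41 rose and 0 fell, where 5.3% of all genes tested rose and 8.43% fell (6.97% and 4.01% under quantile normalisation, 6.73% and 4.24% in the authors' value table). Their median difference was 1.97 against -0.12 over all genes, or 1.57 when 9 of the 10 genes that no T5R1 control array detected are held at their lower bound (the stressed mean over the lowest signal called detected on the control arrays). The tenth, Cenpf, was not higher and has no bound. The median was smaller under normexp background correction (0.685) and in the authors' value table (1.167), where 40 and 42 of the 49 rose. Of the 49, 6 entered the tests only through stressed groups (Bub1, Cenph, Nuf2, Ska1, Kif11 and Kif4). Among the other 43, which at least 3 arrays of some control group detected, 35 rose and 0 fell, with a median of 1.8. In such whole-tissue RNA more dividing cells and more mitotic RNA per cell cannot be told apart.

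All 4 stressed hearts of T5R1 took part. The summed signal of the 49 genes was 2070, 2000, 1960 and 1980 in the controls and 4770, 3850, 3960 and 3500 in the stressed hearts. The arms did not overlap, and stressed replicate 1 was the highest for 41 of the 49 genes. Against the highest control of their own condition, 46, 44, 43 and 42 of the genes were higher in stressed replicates 1 to 4. Every stressed array exceeded every control array for 42 of the 49 genes, against 6.63% of all genes tested, and 1 gene, Tpx2, had every stressed array below every control (15.7% of all genes).

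**Figure D1:**
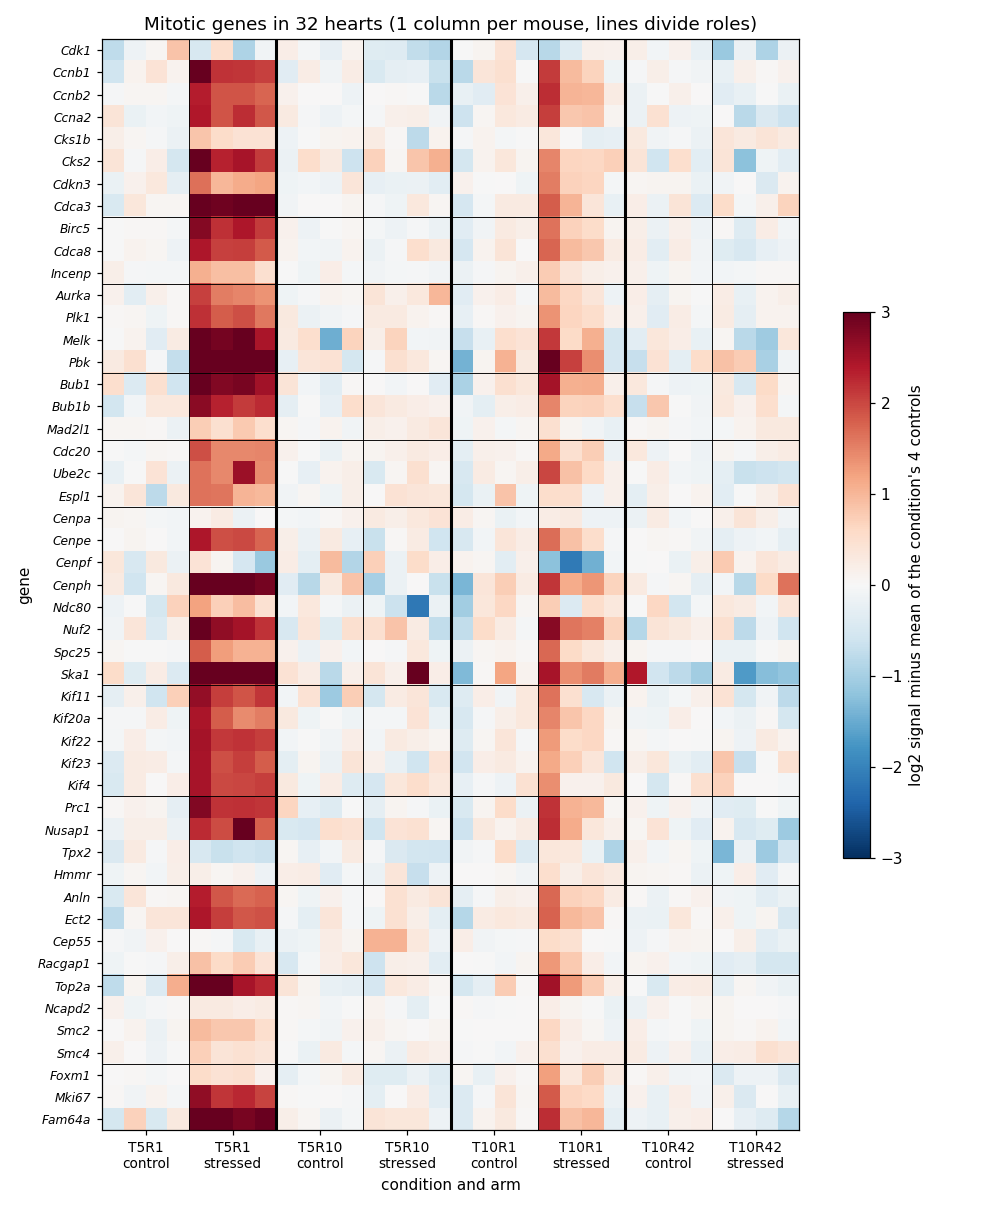
Heat map of the 49 tested mitotic genes (rows, ordered by role) in 32 hearts (columns, 4 mice per arm of each condition), coloured by log2 signal minus the mean of the condition's 4 controls, on a scale that ends at -3 and 3. The 4 stressed hearts of T5R1 are red for most genes, T10R1 shows 1 strongly red heart beside paler ones, and T5R10 and T10R42 show no common shift.

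CDK1, its cyclins and its other partners act around mitotic entry, and 7 of the 8 rose in T5R1. The other was Cdk1 itself, whose probes disagreed and are described below. Ccnb2, a B-type cyclin, gave 26.5, 28.4, 28.3 and 26.3 in controls and 140, 101, 101 and 92.4 in stressed hearts, a difference of 1.97 ± 0.25 (SE, n = 4 per arm; limma adjusted p = 8.73e-06). Ccna2, the cyclin that bridges S phase and mitosis, went from 28.8, 19.1, 20.7 and 20.2 to 116, 80.9, 101 and 79.7 (4.26-fold, limma adjusted p = 1.21e-05). Neither gene's arms came near each other. Cdca3, an F-box-like protein that promotes entry into mitosis, gave 3.61, 6.32, 5.15 and 5.21 in controls, 2 of them detected, and 53.9, 37.7, 54.2 and 39.6 in stressed hearts, a difference of 3.20 ± 0.28. Ccnb1, Cks1b, Cks2 and Cdkn3 rose as well, though a second Ccnb1 probe, detected in 0 controls and 2 stressed hearts, did not pass (limma adjusted p over all probes = 0.164). Cks2, a small CDK-binding subunit, was well above background in 0 control hearts and 4 stressed hearts and was at least 3.18-fold higher. Cks1b, its relative, was bright already in control hearts (105 to 134) and reached 161 to 214 under stress, a rise of 0.56 ± 0.16 with no overlap.

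The chromosomal passenger complex corrects faulty attachments and steers cytokinesis. Its 3 tested members all rose, while its kinase Aurkb was detected in 2 stressed hearts and 0 of 16 controls. Birc5 (survivin) had controls within 39.7 to 42 and stressed hearts at 276, 189, 221 and 175, a difference of 2.37 ± 0.20 (limma adjusted p = 9.14e-08). Cdca8 (borealin) went from 22.8, 24.6, 24.1 and 20.5 to 124, 95.7, 97.2 and 82, a difference of 2.10 ± 0.22. The scaffold Incenp was bright in every heart, at 155, 134, 133 and 132 in controls and 289, 257, 258 and 194 in stressed hearts, and rose by less, 0.84 ± 0.12. Its lowest stressed heart still lay above its highest control.

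All 4 other mitotic kinases rose. Plk1, which acts at centrosomes, kinetochores and the midbody, gave 25.1, 25.5, 22.4 and 24.9 in controls and 111, 86.4, 93.5 and 73.1 in stressed hearts (1.88 ± 0.18; limma adjusted p = 1.84e-07). Aurka, the kinase of spindle poles, went from 18.5, 13.6, 18.7 and 17.2 to 69.4, 49, 46.7 and 43.2 (1.60 ± 0.20). The arms stayed apart for both genes. Pbk, a mitotic serine/threonine kinase, was detected in no T5R1 control (0.849 to 1.96) and in all 4 stressed hearts (25.4, 16.9, 15.1 and 14.6), at least 3.24-fold higher. Melk behaved alike, at least 2.62-fold higher.

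The spindle checkpoint delays anaphase until every chromosome is attached. Its 3 tested members rose, of which Bub1 entered only through stressed groups, and Ttk was detected in 1 stressed heart only. Bub1b (BubR1) gave 2.35, 3.24, 4.23 and 4.26 in controls, 1 of them detected, and 22.5, 17, 14.7 and 16.3 in stressed hearts (2.35 ± 0.25). Bub1, its partner kinase, was detected in no control (0.872 to 1.85) and in all stressed hearts (13.7, 9, 9.39 and 7.53), at least 1.79-fold higher. Mad2l1, the inhibitor that binds CDC20, had the smallest rise of the 3, from 52.2, 52.3, 51.7 and 44.4 to 83.3, 69.6, 85.7 and 71 (0.62 ± 0.11; limma adjusted p = 0.000575). A further Mad2l1 probe gave a rise of 0.78 and another a difference of 0.12 (limma adjusted p over all probes = 0.691).

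The 3 genes that trigger anaphase rose together. Cdc20, the activator of the anaphase-promoting complex, went from 37.6, 36.2, 39.4 and 38.6 to 144, 104, 104 and 105 (1.57 ± 0.17; limma adjusted p = 1.20e-06). Ube2c, the complex's ubiquitin-conjugating enzyme, gave 31.5, 36.8, 49 and 32.6 in controls and 113, 99.5, 218 and 99.3 in stressed hearts (1.76 ± 0.28), with replicate 3 far above the other stressed hearts. Espl1 (separase), the protease that cuts cohesin, went from 4.55, 5.44, 2.42 and 5.18 to 13, 12.7, 8.53 and 8.25 (1.31 ± 0.25). Of 13 subunits of the anaphase-promoting complex itself, 0 rose by limma and 1 fell (Anapc13, -0.33 ± 0.06), where 5.3% of all genes rose and 8.43% fell. At an unadjusted p below 0.05, 0 were higher and 3 lower, against 9.15% and 20.4% of all genes. The median of the 13 was -0.08, against -0.12 over all genes.

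At the centromere and kinetochore 5 of 8 genes rose, and 2 of 5 when Cenph, Nuf2 and Ska1, which entered only through stressed groups, are set aside. Cenpe, a kinesin that moves chromosomes to the spindle equator, gave 15.2, 16.1, 15.4 and 14.3 in controls and 81.9, 58.6, 60.4 and 51.1 in stressed hearts (2.03 ± 0.24). Spc25, of the NDC80 complex, rose by 1.29 ± 0.21. Cenph, Nuf2 and Ska1 were detected in 0 controls and 4 stressed hearts of T5R1 and were at least 2.31-fold, 2.26-fold and 2.99-fold higher. The other 3 genes did not pass the test. Cenpa, the centromeric histone, was as bright as 342 to 381 in controls and 317 to 430 in stressed hearts (0.04 ± 0.12). Cenpf was detected in 0 controls and 2 stressed hearts, with signals of 3.08 to 5.45 and 1.96 to 5.71, and no fold is given. Ndc80 gave 14.1, 15.3, 10.8 and 25 in controls and 35.8, 25.5, 29.7 and 21.5 in stressed hearts (0.83 ± 0.37; limma adjusted p = 0.132), so its arms overlapped through 1 control heart. It passed the test under normexp background correction (0.358; adjusted p = 0.0363) and in the authors' value table (0.598; adjusted p = 0.0182).

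All 5 tested kinesin motors rose, 3 of them without Kif11 and Kif4, which entered only through stressed groups. Kif15 and Kif2c were too dim to test. Kif22, which pushes chromosome arms along the spindle, had the smallest adjusted p of all members, going from 17.1, 20.5, 17.3 and 16.8 to 102, 77.7, 80.3 and 75.2 (2.22 ± 0.17; limma adjusted p = 1.30e-08). Kif20a, needed at the central spindle, went from 13.3, 13.3, 16 and 12.5 to 74.5, 48.6, 36.6 and 39.5 (1.80 ± 0.23). Kif23, of the centralspindlin complex, rose by 2.07 ± 0.31. The chromosome-bound kinesin Kif4 and the bipolar spindle motor Kif11 were detected in 0 T5R1 controls and in all 4 stressed hearts, at least 1.83-fold and 1.68-fold higher.

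Among the spindle microtubule proteins 2 of 4 rose. Prc1, which bundles the microtubules of the central spindle, went from 24.4, 26.2, 25.3 and 19.8 to 164, 106, 109 and 106 (2.32 ± 0.28). Nusap1, which cross-links spindle fibres, gave 9.47, 12, 12 and 9.5 in controls and 50.1, 41.2, 92.7 and 37.2 in stressed hearts (2.28 ± 0.37), with replicate 3 the highest. Hmmr differed by 0.06 ± 0.15 with overlapping arms. Tpx2, the activator of Aurora A, is described with Cdk1 because its probes disagreed.

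In cytokinesis 3 of 4 genes rose. Anln (anillin), a scaffold of the contractile ring, gave 13.8, 24.5, 19.7 and 19.9 in controls and 97, 69.2, 61.9 and 65.2 in stressed hearts (1.92 ± 0.21; limma adjusted p = 9.66e-07). Ect2, the exchange factor that activates RhoA at the cleavage site, went from 2.65, 4.73, 5.84 and 5.87 to 24.6, 19, 16.5 and 17.2 (2.07 ± 0.30). Racgap1, its centralspindlin partner, went from 41.7, 45.3, 44.3 and 51.9 to 83.3, 67.8, 77.4 and 60.7, the smallest rise of the 3 (0.65 ± 0.21; limma adjusted p = 0.0410). This call was lost in 8 of 18 alternative fits. Racgap1's other kept probe, detected on all 32 arrays, rose by 1.03 ± 0.14 (limma adjusted p over all probes = 2.22e-05). Cep55, which recruits the abscission machinery, gave -0.17 ± 0.19 from a bright probe, and its other probe was detected on 2 arrays only.

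All 4 tested genes that condense or untangle chromosomes rose. Top2a, the topoisomerase of dividing cells, was detected in 1 control (1.91, 3.41, 2.43 and 6.86) and in all stressed hearts (27, 27.9, 17.9 and 15.5), a difference of 2.73 ± 0.38. The condensin subunits rose by less: Smc2 from 45.1, 48, 39.5 and 47.8 to 87, 78.8, 79.4 and 64.2 (0.77 ± 0.11), and Smc4 from 197, 180, 160 and 178 to 291, 233, 246 and 230 (0.48 ± 0.11). Ncapd2 (321 to 383 in controls) rose 1.19-fold (limma adjusted p = 0.0465), a call lost in 13 of 18 alternative fits. Ncapg was detected in 1 stressed heart only.

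Of the markers of proliferation, Mki67 (the Ki-67 antigen) went from 56.3, 50.8, 59 and 52.8 to 343, 242, 263 and 222 (2.27 ± 0.25; limma adjusted p = 1.20e-06). Fam64a (also Pimreg), detected in 1 control, went from 2.66, 6.27, 2.81 and 4.73 to 54.8, 35.9, 27.7 and 30.3 (3.22 ± 0.34). Foxm1, the transcription factor of late cell cycle genes, did not pass the test in T5R1, at 19.1, 19.2, 18 and 19.1 in controls and 27.7, 25.6, 26.5 and 20.7 in stressed hearts (0.40 ± 0.15; limma adjusted p = 0.0657). Its arms did not overlap, and it passed in 4 of 10 alternative fits, among them quantile normalisation (0.493; adjusted p = 0.0219).

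**Figure D2:**
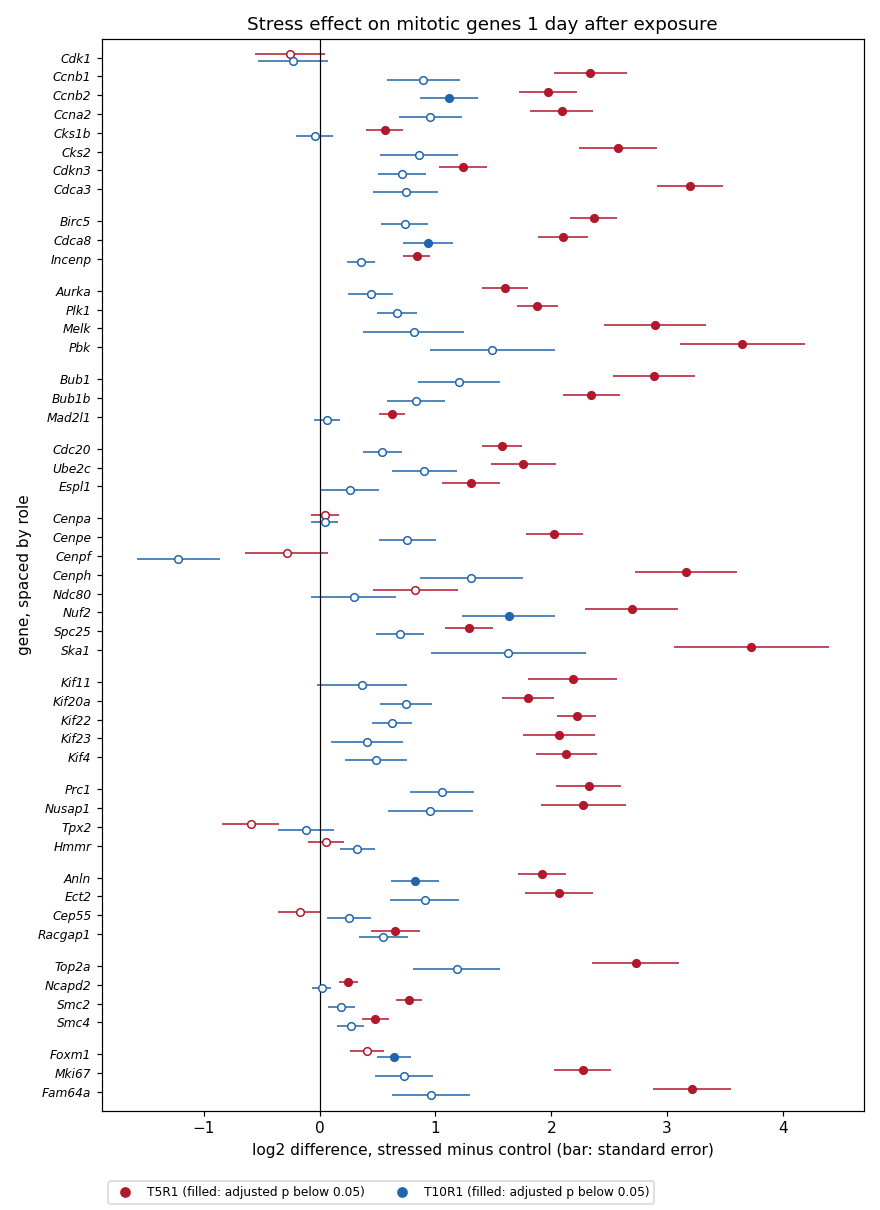
Stressed minus control differences (log2, x axis) of the 49 tested genes (y axis, spaced by role) in T5R1 (red) and T10R1 (blue), with standard errors and filled points where the limma adjusted p was below 0.05. In T5R1 41 points are filled and in T10R1 5, and most blue points lie between 0 and the red point of the same gene.

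For Cdk1 and Tpx2 the answer depended on the probe. Cdk1's brightest probe (mm9 chr10:68799513-68799572) gave 1.9, 2.9, 3.38 and 5.84 in T5R1 controls and 2.3, 4.61, 1.71 and 2.98 in stressed hearts, a difference of -0.25 ± 0.30 with overlapping arms, and 0.01 in the authors' value table. Its probe at chr10:68801072-68801131 gave 2.32, 2.78, 2.88 and 2.46 in controls, none detected, and 36.1, 30.5, 30.7 and 25.4 in stressed hearts, all detected, at least 5.63-fold higher (limma adjusted p over all probes = 3.12e-07). The third, at chr10:68801053-68801112, was detected in 0 controls and 3 stressed hearts and rose by the same test (limma adjusted p over all probes = 0.00511), with a bound of at least 1.01-fold. The probe used was detected in 1 heart of each arm. Tpx2's brightest probe (chr2:152720285-152720344) gave 12.3, 19.9, 16.1 and 19 in controls and 11.9, 10.4, 11 and 10.6 in stressed hearts (-0.60 ± 0.24; limma adjusted p = 0.102), the reverse order with no overlap. That difference passed the test under normexp background correction (-0.398; adjusted p = 0.0328) and in a fit on the 8 T5R1 arrays (adjusted p = 0.0485). The other Tpx2 probe (chr2:152719476-152719535) gave 3.51, 7.14, 4.83 and 5.89 in controls and 50.4, 29.8, 20.6 and 25.3 in stressed hearts (2.53 ± 0.34). The brightest probes of both genes also differed between the controls of the conditions. For Cdk1 the controls gave 1.9 to 5.84 in T5R1, 3.36 to 6.36 in T10R1, 27.9 to 38.2 in T5R10 and 18.9 to 25.3 in T10R42. For Tpx2 they gave 12.3 to 19.9, 5.5 to 10.6, 34.9 to 49.3 and 33.2 to 40.5 in the same order. Slide and condition cannot be told apart here. Over all members, 11 genes had several kept probes, and in 9 of them every kept probe was higher in T5R1, in 7 with every probe past the test. Of the 63 kept member probes 52 rose when each was fitted alone, against 4.41% of all 38824 probes, in a fit added after the data were seen.

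**Figure D3:**
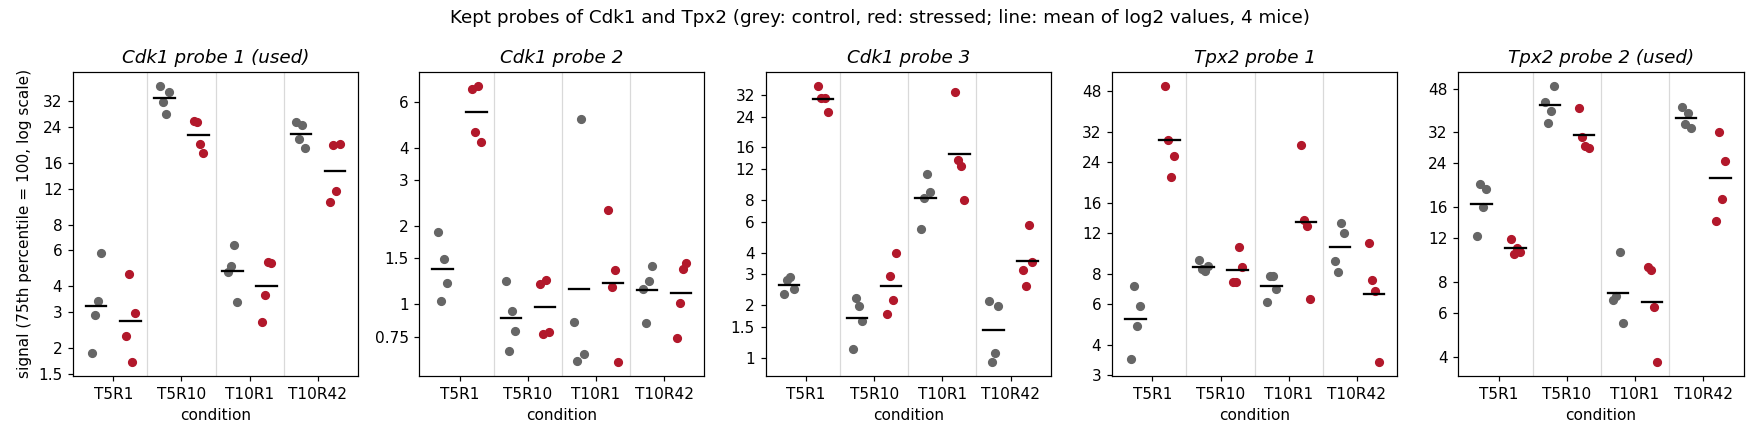
Normalised signal per heart (log scale, 75th percentile of the array = 100) of the 3 kept Cdk1 probes and the 2 kept Tpx2 probes in each condition, with controls in grey, stressed hearts in red and lines at the mean of the log2 values of 4 mice. Between the T5R1 and T5R10 controls the used Cdk1 probe goes from 1.9 to 5.84 up to 27.9 to 38.2, and the used Tpx2 probe is lower in all T5R1 stressed hearts, whereas the 3 probes not used separate the T5R1 arms with stressed hearts higher.

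With 10 days of exposure and the same single day of rest (T10R1) fewer of the genes rose. Of the 49, 5 rose and 0 fell, where 0.774% of all genes rose and 0.36% fell (0.527% and 0.145% under quantile normalisation). Among the 43 detected in some control group, 4 rose. The median difference of the 49 was 0.71, against 0.00 over all genes. At an unadjusted p below 0.05, 34 of the 49 were higher and 1 lower (Cenpf, -1.22 ± 0.36, limma adjusted p = 0.102), against 6.36% and 6.76% of all genes. The 5 were Ccnb2, Foxm1, Cdca8, Nuf2 and Anln, of which 4 had risen in T5R1.

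The stressed hearts of T10R1 differed from one another. The summed signal of the 49 genes was 4260, 2890, 2590 and 2180 in the 4 stressed hearts and 2100, 2250, 2310 and 2280 in the controls. Replicate 1 was the highest stressed heart for 46 of the 49 genes and replicate 4, which lay within the control range, the lowest for 38. Against the highest control, 45, 41, 37 and 9 of the genes were higher in replicates 1 to 4. Every stressed array exceeded every control array for 9 of the 49 (Cks2, Plk1, Bub1b, Nuf2, Spc25, Hmmr, Anln, Smc4 and Foxm1), against 4.3% of all genes tested, and the reverse held for 0 of the 49, against 5.48%.

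Ccnb2 gave 22.4, 20.6, 35.1 and 29.3 in T10R1 controls and 121, 53.4, 52.1 and 31.1 in stressed hearts, a difference of 1.12 ± 0.25 (limma adjusted p = 0.0251). Cdca8 gave 20, 30.5, 37.1 and 28.3 against 94.5, 54.8, 50 and 33.3 (0.94 ± 0.22; limma adjusted p = 0.0301). In both the arms overlapped, because stressed replicate 4 fell below the highest control. Anln gave 22.1, 25.9, 29.7 and 29.1 against 88, 42.6, 40.6 and 31.6 (0.82 ± 0.21; limma adjusted p = 0.0465), and Foxm1 gave 11.5, 9.59, 12.2 and 11.4 against 26, 13.9, 18.7 and 13.4 (0.64 ± 0.15; limma adjusted p = 0.0292). Nuf2 was detected in 0 controls and 3 stressed hearts (10.6, 4.89, 4.57 and 2.53) and was at least 2.05-fold higher. In these 3 genes the arms did not overlap.

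Birc5 and Mki67, both far up in T5R1, did not pass the test in T10R1. Birc5 gave 47.2, 55.7, 72.3 and 67.1 in T10R1 controls and 184, 96.7, 86.9 and 63.2 in stressed hearts (0.74 ± 0.20; limma adjusted p = 0.0764). Mki67 gave 61.6, 80, 106 and 84.7 against 293, 127, 123 and 72.7 (0.73 ± 0.25; limma adjusted p = 0.171). In both, stressed replicate 4 lay among the controls.

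The T10R1 count turned on single hearts. It was 0 without stressed replicate 1, 2 without stressed replicate 2, 2 without stressed replicate 3 and 18 without stressed replicate 4, with 1 lower. It was 0 without control replicate 1, 0 without control replicate 2 and 1 without control replicate 4. Other processing gave 1 (quantile normalisation), 3 (normexp background correction, no detection filter, or slide row as a block), 2 (the dimmest kept probe per gene) and 0 (a fit on the 8 T10R1 arrays). Of the 5 genes, Ccnb2 lost its call in 5 of 18 alternative fits, Foxm1 in 8, Cdca8 in 10, Anln in 13 and Nuf2 in 15. The T5R1 count stayed between 38 and 41 when any one of its hearts was left out.

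**Figure D4:**
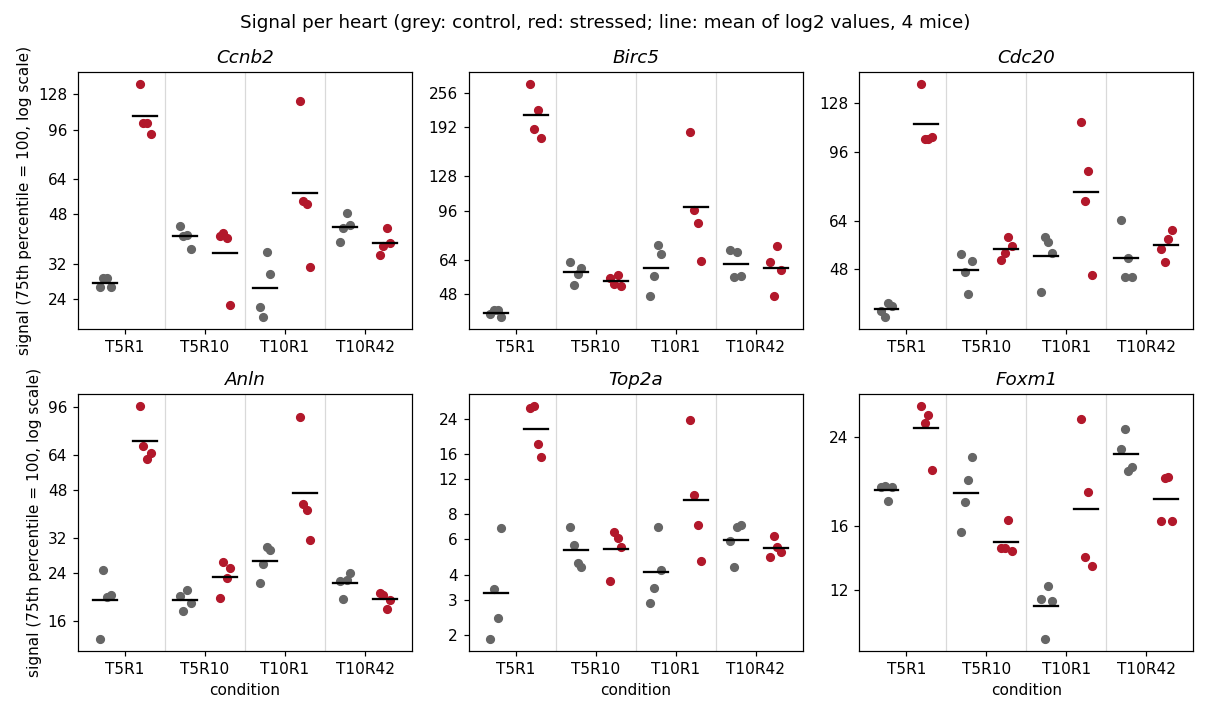
Normalised signal per heart (log scale, 75th percentile of the array = 100) of 6 genes in the 4 conditions, with controls in grey, stressed hearts in red and lines at the mean of the log2 values of 4 mice. In T5R1 the arms are apart in all 6 genes, in T10R1 the stressed hearts spread from control level upwards, and in T5R10 and T10R42 most arms overlap.

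The stress effect differed between the 2 exposure lengths for some of the genes. The test of the difference between T10R1 and T5R1 found a smaller effect after 10 days for 10 of the 49 genes and a larger one for 0, where 0.232% of all genes had a lower and 0.36% a higher effect. The largest of these were Cdca3 (-2.46 ± 0.40) and Fam64a (-2.26 ± 0.48), followed by Birc5, Kif22, Mki67, Bub1b, Plk1, Aurka and Cdc20 (-1.63 to -1.03). The tenth was Kif4, whose size is not ranked here because no T5R1 control detected it. Of the T5R1 controls, 2 detected Cdca3, 1 detected Fam64a and 1 detected Bub1b, so these sizes rest partly on signals near background. All 10 genes had a higher control mean and a lower stressed mean in T10R1 than in T5R1, so both arms enter these differences. The control mean was 5.07 in T5R1 and 11.9 in T10R1 for Cdca3, 4.12 and 8.44 for Fam64a and 17.9 and 36.9 for Kif22. For Birc5 it was 41.1 and 60.6, for Mki67 54.7 and 83.1, and for Plk1 24.5 and 28.6. Among the 43 genes detected in some control group the count was 9. The estimated effect was larger in T5R1 for 44 of the 49, whereas over all genes it was larger in T10R1 for 62.02%. The count of 10 was 5 under normexp background correction, 3 with no detection filter and 6 with the dimmest kept probe per gene. It moved with single hearts too. Of T10R1 stressed hearts, it was 28 without replicate 1, 5 without replicate 2, 3 without replicate 3 and 3 without replicate 4. Of T10R1 controls, it was 16, 3, 6 and 3 without replicates 1, 2, 3 and 4. Of T5R1 hearts, it was 4, 3 and 4 without control replicates 2, 3 and 4 and 3, 5 and 3 without stressed replicates 1, 2 and 3. Both conditions lay on slides of their own, scanned on different days, and these cannot be told apart from the length of exposure.

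After longer rest no mitotic gene passed the test. In T5R10, 10 days after the same 5-day exposure, 0 of 49 rose and 0 fell by limma, with 3 higher and 2 lower at an unadjusted p below 0.05 (6.49% and 7.47% of all genes) and a median of 0.05, where 0.0218% of all genes rose and 0.0545% fell. In T10R42, 0 rose and 0 fell, with 1 higher and 1 lower at an unadjusted p below 0.05 (7.13% and 11.6% of all genes) and a median of -0.09, where 0.287% of all genes rose and 0.61% fell. The summed signal was 2220 to 2270 in T5R10 stressed hearts and 2070 to 2230 in their controls, and 2180 to 2290 against 2150 to 2300 in T10R42. All stressed hearts lay above all controls for 3 genes in T5R10 (2.6% of all genes) and for 0 in T10R42 (4.15%), and below them for 2 (3.23%) and 4 (7.3%).

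Single genes showed the same. Birc5 gave 62.6, 51.8, 56.7 and 59.8 in T5R10 controls and 55, 52.2, 56.3 and 51.3 in stressed hearts (-0.10 ± 0.20). Ccnb2 gave 43.6, 40.1, 40.3 and 36.1 against 40, 41, 39.6 and 22.7 (-0.20 ± 0.25). The arms of both overlapped, as did those of Birc5 in T10R42, at 69.5, 55.3, 68.3 and 56 in controls and 62.9, 47.5, 71.7 and 58.7 in stressed hearts (-0.06 ± 0.20). Foxm1 in T10R42 gave 22.7, 24.9, 20.6 and 21 in controls and 16.4, 19.9, 20 and 16.4 in stressed hearts, all below the controls (-0.30 ± 0.15; limma adjusted p = 0.275).

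Tested directly, the stress effect was smaller in T5R10 than in T5R1 for 34 of the 49 genes and larger for 0, where 1.31% of all genes had a lower and 1.18% a higher effect. Among the 43 genes detected in some control group it was smaller for 29. It was smaller in T10R42 than in T10R1 for 6 genes (Ccnb2, Ccna2, Cdca8, Ube2c, Anln and Foxm1, -1.43 to -0.94) and larger for 0, where 2.23% and 1.89% of all genes differed. All 6 were among the 43. The count of 6 was 0 under quantile normalisation, in the authors' value table and in a fit on only the arrays compared, 2 with no detection filter and 3 with the dimmest kept probe per gene. These comparisons share the T5R1 or T10R1 hearts with those above. In both, slide cannot be told apart from the length of rest. T10R1 and T10R42 were also scanned on different days. The count of 34 stayed between 28 and 35 without any one heart. The count of 6 became 2 without T10R1 control replicate 1, 2 or 4 and 1, 3 and 15 without T10R1 stressed replicates 1, 3 and 4. It became 2 without any one T10R42 control, and 1 and 2 without T10R42 stressed replicates 3 and 4.

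Other genes of division moved with them in T5R1, where 5.3% of all genes rose and 8.43% fell. Of 39 further mitotic genes tested, 27 rose, with a median of 1.26, among them Cenpk (1.90 ± 0.18), Trip13 (1.68 ± 0.17), Cdca5 (2.36 ± 0.25) and Zwilch (1.86 ± 0.23). One fell, Spc24 of the NDC80 complex (-0.50 ± 0.105). Of 27 genes of DNA replication 19 rose and 0 fell, with a median of 0.55, among them thymidine kinase Tk1 (1.37 ± 0.14), ribonucleotide reductase subunit Rrm2 (1.28 ± 0.16), Uhrf1 (1.79 ± 0.22) and the helicase subunit Mcm5 (1.36 ± 0.19). Of 14 G1 cyclins, kinases, E2F and Myb factors 7 rose and 0 fell, among them E2f1 (1.21 ± 0.16), E2f8 (0.80 ± 0.15), Ccnd1 (0.73 ± 0.16) and Ccne1 (0.67 ± 0.17). Of 19 CDK inhibitors, pocket proteins, repressor E2F factors and MuvB subunits, counted with Trp53, 5 rose and 0 fell: the pocket proteins Rbl1 (0.73 ± 0.12) and Rb1 (0.18 ± 0.06), the inhibitors Cdkn2a (0.87 ± 0.22) and Cdkn2c (0.36 ± 0.10), and Trp53 (0.46 ± 0.13). In T10R1 1 further mitotic gene rose, Cenpk (0.89 ± 0.18), where 0.774% of all genes rose. None of the replication, G1 or inhibitor genes passed limma's test there. At an unadjusted p below 0.05, 7, 2 and 1 of them were higher and 1, 0 and 2 lower, against 6.36% and 6.76% of all genes.

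Markers of other cell types moved beside the mitotic genes. Of all genes, 5.3% rose and 8.43% fell in T5R1, and 0.774% rose and 0.36% fell in T10R1. Of 10 fibroblast markers, 5 rose in T5R1 and 5 in T10R1, among them Col3a1 (2.95 ± 0.32 and 2.29 ± 0.32) and Col1a1 (2.53 ± 0.30 and 2.01 ± 0.30) in both. All 10 were detected in every heart, and their summed signal was 28900 to 30300 in T5R1 controls and 38200 to 68600 in stressed hearts, against 26200 to 27900 and 34700 to 53400 in T10R1. Of 13 macrophage markers 8 rose in T5R1, among them Cd68 (1.17 ± 0.20), and 1 in T10R1, Csf1r (0.45 ± 0.09), with summed signals of 4010 to 4590 and 4930 to 7850 in T5R1 and 4270 to 4870 and 5360 to 6860 in T10R1. In T10R1 stressed replicates 1 to 4 the fibroblast signal was 45600, 38100, 34700 and 53400, and the mitotic signal 4260, 2890, 2590 and 2180. Replicates 1 to 3 thus had the same order in both. Replicate 4, whose mitotic genes lay at control level, had the most fibroblast and macrophage signal (6860 for the latter).

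Of 9 erythroid markers 2 rose in T5R1 (Ahsp 2.60 ± 0.63 and Slc4a1 1.92 ± 0.48), with summed signals of 133000 to 174000 and 135000 to 298000. In T10R1 their summed signal in stressed replicates 1 to 4 was 238000, 216000, 152000 and 129000, against 140000 to 191000 in controls. There 0 passed limma's test, with 2 higher and 0 lower at an unadjusted p below 0.05 (6.36% and 6.76% of all genes). The T5R1 summed signal was 135000, 180000, 298000 and 197000 in stressed replicates 1 to 4, where replicate 1 had the highest mitotic signal. Of 7 neutrophil markers 3 rose in T5R1 (S100a8, S100a9 and Retnlg, the last detected in 0 controls), with summed signals of 437 to 484 and 458 to 734. Of 10 endothelial markers 0 rose and 0 fell in T5R1 by limma (0 higher and 3 lower at an unadjusted p below 0.05). Over all genes in T5R1, 5.3% rose and 8.43% fell by limma, and 9.15% were higher and 20.4% lower at the unadjusted threshold. Of 12 T and NK cell markers 0 rose and 2 fell (Nkg7 and Cd3e), and of 8 B cell markers 0 passed at either threshold. Of 10 cardiomyocyte markers 1 fell (Tnni3, -0.32 ± 0.10), and of 9 smooth muscle and pericyte markers 1 rose (Cspg4) and 1 fell (Abcc9). The part of these cell types in the mitotic result was not tested.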

How the data were processed

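Heart RNA of 32 mice was measured on 1-colour Agilent arrays. Per the file headers, the deposited intensity of a spot is the processed signal of Feature Extraction 10.7.3.1, already corrected for background by that software. Further deposited columns are other values: flags of 0 or 1 that mark detection above background, saturation and outliers, per the file headers. The deposited value table holds log2 values that follow the log2 mean spot signal (correlation at least 0.99951 per array). Its column medians were 5.854 for T10R1, 6.027 for T10R42, 6.223 to 6.224 for T5R1 and 6.259 for T5R10, so it is neither centred by gene nor a ratio. It was used as an alternative only.

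The values analysed were log2 intensities from which the array's own 75th percentile had been taken off (237.2 to 498.9 on the linear scale). Of 55681 probes, those well above background on at least 3 of 4 arrays of a group and missing on at most 4 arrays were kept (38824). Outlier spots (5470) were dropped, no probe value was saturated, and the brightest kept probe stood for a gene. limma 3.58.1 in R 4.3.3 fitted 8 group means over all 32 arrays (24 residual degrees of freedom, two-sided tests, Benjamini-Hochberg over 27532 genes), and was tested on simulated data. Where no control array of a condition detected a gene that was higher in stressed hearts, its fold is a lower bound, taken against the lowest signal called detected on each control array or the gene's own signal, whichever was higher. The number of arrays, 4 per group, limits the precision. Positions of probes are those of the array design (mm9). Figures were drawn with matplotlib.

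The members, gene lists, roles, motifs and tests were chosen with earlier results of these data known. Values per heart are given for up to 3 genes per role with the smallest T5R1 p and for those called in another condition. From other lists, up to 4 called genes are named, and Rb1 besides. Of the cell type marker lists, 1 gene was left out of every count and is not reported here. Genes outside this rule were named after their values were seen. Same-numbered control and stressed mice did not deviate together throughout (correlations from -0.27 to 0.21), so replicate numbers were not taken as pairs. The scanner software marked 3 arrays for evaluation, all in T5R10. Alternatives were another background correction, quantile normalisation, the value table, other detection filters, probe averaging, fits on only the arrays compared, blocks for replicate number and slide row, and leaving out each heart.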

Additional observations from a re-analysis of the deposited data

Results flagged for a closer look

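The stress effects of different conditions were compared by tests of the difference itself, and they differed for 34 of the 49 genes between T5R10 and T5R1, for 10 between T10R1 and T5R1 and for 6 between T10R42 and T10R1. In each of these the effect was smaller in the condition named first. Between T10R1 and T5R1 the differences were -2.46 for Cdca3, -2.26 for Fam64a, -1.65 for Kif4, -1.63 for Birc5, -1.59 for Kif22, -1.54 for Mki67, -1.51 for Bub1b, -1.21 for Plk1, -1.16 for Aurka and -1.03 for Cdc20, where the size for Kif4 rests on T5R1 controls that did not detect it. Between T10R42 and T10R1 they were -1.43 for Ube2c, -1.42 for Ccna2, -1.31 for Ccnb2, -1.25 for Cdca8, -1.01 for Anln and -0.94 for Foxm1. Of the T5R1 controls, 2 detected Cdca3, 1 detected Fam64a and 1 detected Bub1b, so these sizes rest partly on signals near background. Slide and condition cannot be told apart in these comparisons, and T10R1 was scanned on a different day from the other conditions.

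In 9 of 132 groups of 4 hearts, 1 heart stood apart from the other 3 by Dixon's ratio of its gap to the group's range (above its 95% critical value, which chance passes in about 1 in 20 groups). In T5R1 stressed hearts, replicate 1 was the high one for Cdc20 (0.960) and Prc1 (0.941) and replicate 3 for Ube2c (0.831). In T5R1 controls, replicate 1 was high for Incenp (0.877) and replicate 2 for Kif22 (0.861), while replicate 4 was low for Mad2l1 (0.924) and replicate 3 for Foxm1 (0.898). In T10R1, stressed replicate 1 was high for Kif4 (0.853) and control replicate 1 was low for Ect2 (0.936).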

How the results depend on the processing

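The T5R1 count of 41 stayed within 40 to 43 under the processing alternatives run and 38 to 41 without any one heart, and 35 of the 41 genes kept their call in all 18 of their alternatives. Normexp background correction gave 1 lower gene and a median of 0.685 in T5R1, 3 higher genes in T10R1 and 5 with a smaller effect in T10R1 than in T5R1. Quantile normalisation gave 1 higher gene in T10R1 and 0 with a smaller effect in T10R42 than in T10R1. The authors' value table gave a T5R1 median of 1.167 and 0 for that last count. With no filter on detection the T10R1 count was 3, that of T10R42 against T10R1 2 and that of T10R1 against T5R1 3. Fits on only the arrays compared gave 1 lower gene in T5R1, 0 higher in T10R1 and 0 for T10R42 against T10R1. Slide row as a block gave 3 higher genes in T10R1 and 1 with a larger effect in T10R42 than in T10R1. The dimmest kept probe per gene, chosen after seeing the data, gave 2 in T10R1, 3 for T10R42 against T10R1 and 6 for T10R1 against T5R1. Dropping the arrays marked for evaluation left 27 genes with a smaller effect in T5R10 than in T5R1. The cause of these shifts was not tested.

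A replicate block took the T5R1 count to 40, the T10R1 count to 1, that of T10R42 against T10R1 to 1 and that of T10R1 against T5R1 to 1. The numbers did not pair the mice, and 6 of 16 controls correlated best with the stressed heart of their own number.

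Among the members in T5R1 and T10R1, signs turned for Cdk1 and Tpx2 only, in the alternatives compared. Genes with a call were compared in 18 alternatives. Genes without a call were compared in 10, which did not include leaving out a heart. In T5R1 Cdk1 became 0.00934 in the authors' value table, 1.77 with the mean of a gene's probes and 2.01 with the dimmest probe, and Tpx2 became 0.965 with the mean of its probes and 2.53 with the dimmest. In T10R1 Cdk1 became 0.229 and 0.0791 and Tpx2 0.388 and 0.894 under the probe mean and the dimmest probe.

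Without any one heart, the counts ran from 0 to 18 higher and 0 to 1 lower in T10R1, 0 to 1 higher in T5R10 and 0 to 1 lower in T10R42. The count with a smaller effect ran from 28 to 35 for T5R10 against T5R1, 1 to 15 for T10R42 against T10R1 and 3 to 28 for T10R1 against T5R1, and that with a larger effect from 0 to 1 for the first pair and 0 to 1 for the second. Medians ran from 1.845 to 2.046 in T5R1, 0.002 to 0.078 in T5R10, 0.406 to 0.913 in T10R1 and -0.091 to -0.042 in T10R42. Genes detected on no control array have only bounds, and with 4 hearts per arm small differences in dim genes were not measurable.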
